A study of Mus musculus with 40 samples.

Results

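Transgenic mice with a 50% share of the DBA2 strain were set against transgenic mice with no DBA2 share, on 9 of the 40 hippocampus arrays of a study of amyloid in mixed-background mice. The half-DBA group held 3 APP transgenic mice labelled 50% DBA2, 42% SJL and 8% B6, and the SJL-richest group held 6 APP transgenic mice labelled 84% SJL and 16% B6 with 0% DBA2. The arrays were chosen by these strain shares and by running number (14 to 16, and 6 to 9, 11 and 12), with no measured value used in the choice. All 9 mice carried the APP transgene, all were 12 months old, and 1 mouse was hybridised per array. The promoter and line of the transgene, the sex of the mice and their litters are not given in the sources used here. Other groups served for reference: 7 DBA-rich transgenic mice (75% DBA2, 9% SJL, 16% B6), 6 SJL-rich transgenic mice (69% SJL, 31% B6), 6 B6-rich transgenic mice (62.5% B6, 37.5% SJL), and 4 inbred mice each of DBA2 (DBA below), SJL and B6 without the transgene, all also 12 months old. The labels give no cultures or litters, so p-values measure the spread between these mice.

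Mice that carry a human amyloid precursor protein transgene shed amyloid-beta peptide in the brain, and the strain background is known to alter how much of it collects. Inbred strains differ at many sites that set how much RNA a nearby gene makes from its own chromosome copy. In an animal with 1 copy of each kind, such a difference shows at the average of both copies, so a gene that is silent in one strain keeps about 1 copy's worth of signal. A strain mix of 50% DBA can hold 1 DBA copy at every site or 0, 1 or 2 copies at different sites, and the labels do not say which. Array probes are short, so a base difference under the probe can lower its signal with no change in RNA. Probe sequences were not used here, and these cases cannot be told apart for any single probe.

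Signals were normalised over all 40 arrays, and 12317 of 25697 probes were tested, those with a detection p no higher than 0.01 on 3 or more of the 9 arrays. A probe could pass this filter through 1 group alone. The 9 arrays detected 43.1% to 48.1% of their probes. Half-DBA replicate 2 stood apart. On the first principal component, which held 30.3% of the variance, it scored -30.4, against -11.5 and -12.9 for the other half-DBA arrays and 0.20 to 17.0 for the SJL-richest arrays. The summed signal of the striatal markers Drd1, Drd2, Ppp1r1b and Rgs9 was 14000 on that array, against 2287 and 1998 on the other half-DBA arrays and 1707 to 2215 on the SJL-richest arrays. Of 7 hippocampal markers on the array, 6 were detected on all 9 arrays, and Neurod6 was detected on none of them. The hippocampal marker sum was 11634 on half-DBA replicate 2, against 14863 and 17874 on the other half-DBA arrays and 13625 to 16308 on the SJL-richest arrays. The choroid plexus marker sum ran from 18338 to 26267 in half-DBA mice and from 6209 to 38813 in SJL-richest mice. The part of these tissue differences in the results was not tested. The count of probes that passed, the adjusted p of some genes and some list values are also given without half-DBA replicate 2. Counts of classes within the probes that passed are for all 9 arrays only.

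A small share of hippocampal signals differed between the backgrounds. With limma and a Benjamini-Hochberg adjusted p of at most 0.05, 250 probes differed between half-DBA and SJL-richest mice, which is 2.03% of those tested. In half-DBA mice 82 probes were higher (0.666% of all tested) and 168 were lower (1.36%). The probes that passed had a median change of -0.53 on the log2 scale, against -0.00085 over all probes tested. They represent 222 named genes. Each of the 250 had half-DBA arrays that did not overlap the SJL-richest arrays, a pattern shown by 1060 probes or 8.61% of all tested. Of the 50 probes that changed more than 2-fold, 32 were higher and 18 were lower, so higher probes were the smaller class but held more of the large changes. If signals of copies add, losing that of 1 of 2 copies lowers a probe by no more than 2-fold, while a rise has no such limit. Sizes depend on background for 13 higher probes detected on no SJL-richest array and 13 lower probes detected on no half-DBA array.

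The count depended on which arrays were used. Arrays were read as runs of 8 from their running numbers, which the labels do not state. Half-DBA arrays all lie in the run of 9 to 16, and SJL-richest replicates 4, 5 and 6 share it. Within that run 125 probes passed (1.01% of 12317), 84 of them lower in half-DBA mice, and 107 were among the 250. With the run as a block 175 passed (1.42%), and 1 probe (0.00812%) differed between runs inside the SJL-richest group. Without half-DBA replicate 2, 165 probes passed, 151 of them among the 250, and within the run of 9 to 16 the same omission left 78.

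**Figure D1:**
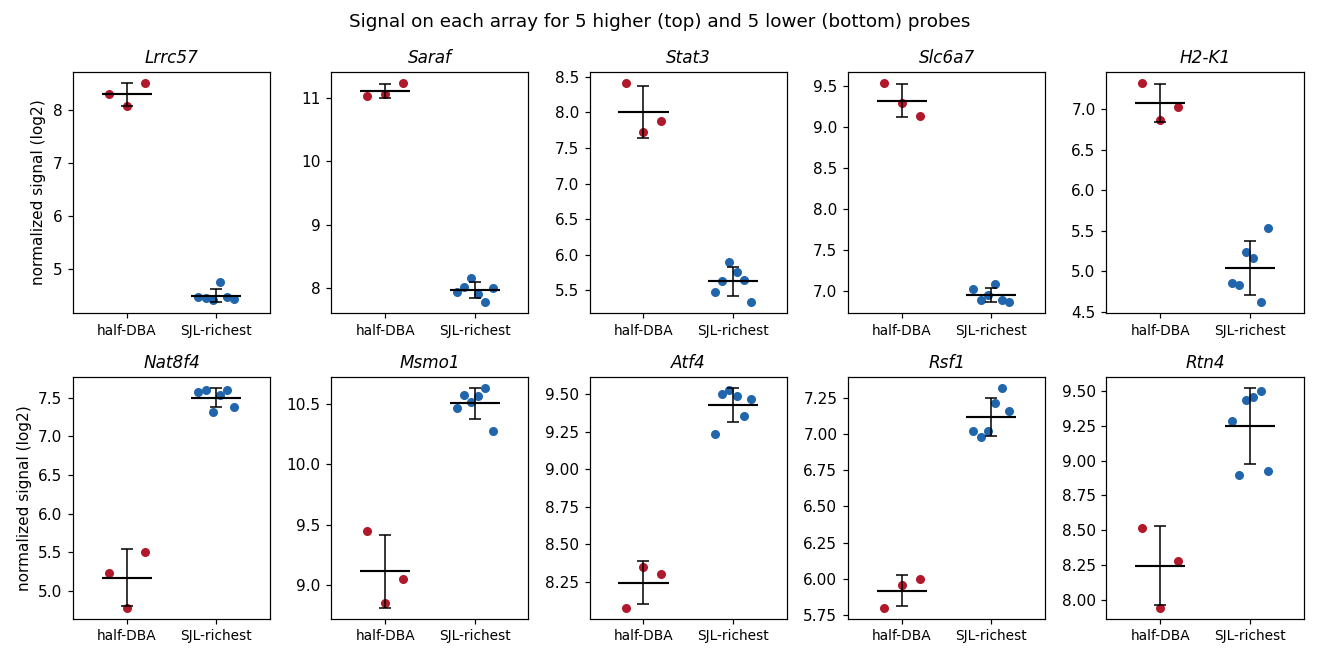
Normalized log2 signal of 10 probes on each of the 9 arrays, with half-DBA mice (red) to the left of SJL-richest mice (blue), and the group mean and SD as bars. In the top row (Lrrc57, Saraf, Stat3, Slc6a7, H2-K1) all 3 half-DBA arrays lie above all 6 SJL-richest arrays, and in the bottom row (Nat8f4, Msmo1, Atf4, Rsf1, Rtn4) all 3 lie below.

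The probe that rose most in half-DBA mice was for Lrrc57, a leucine-rich repeat protein. It read 8.29, 8.08 and 8.51 on the log2 scale in half-DBA mice, against a lowest value of 4.42, a median of 4.46 and a highest of 4.75 in SJL-richest mice. It was detected on 0 of 6 SJL-richest arrays, so it was at least 6.62-fold higher in half-DBA mice (limma adjusted p 8.11e-08). Saraf, which damps calcium entry after the stores of the endoplasmic reticulum empty, read 11.03, 11.05 and 11.24 in half-DBA mice, against 7.77, 7.97 and 8.16 (lowest, median, highest) in SJL-richest mice. Its change was 3.14 ± 0.09 (SE). The same gene had other probes that went the other way: ILMN_1258965 changed by -0.37 (limma adjusted p 0.00847) and ILMN_2758878 by -0.31 (0.0894), at higher mean signals of 12.02 and 10.82 in half-DBA mice, against 12.40 and 11.14 in SJL-richest mice. The direction for Saraf therefore depended on the probe.

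Stat3, the transcription factor of cytokine receptors, read 8.41, 7.72 and 7.88 in half-DBA mice through ILMN_2698046, against 5.33, 5.64 and 5.91 in SJL-richest mice, where it was detected on 3 of 6 arrays, and was at least 4.99-fold higher. The other 2 Stat3 probes changed by -0.10 and -0.15 and did not pass (limma adjusted p 0.517 and 0.428). Slc6a7, the brain proline transporter of glutamatergic terminals, read 9.54, 9.29 and 9.14 in half-DBA mice, against 6.86, 6.92 and 7.08 in SJL-richest mice, a change of 2.37 ± 0.09 (limma adjusted p 1.13e-06). Arhgef15 rose by 1.43 ± 0.16, and its second probe, detected on 0 of 6 SJL-richest arrays, was at least 1.51-fold higher. Both Arhgef15 probes passed, unlike the probes of Stat3.

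Psmd12, a subunit of the proteasome lid, read 10.44, 9.98 and 9.92 in half-DBA mice, against 7.96, 8.11 and 8.30 in SJL-richest mice, a change of 1.99 ± 0.12. Mus81, an endonuclease that cuts branched DNA, was detected on 3 of 3 half-DBA arrays and 1 of 6 SJL-richest arrays and was at least 3.70-fold higher, while a second Mus81 probe changed by 0.17 (limma adjusted p 0.345). Cfl1, the actin-severing protein cofilin, was detected on all 3 half-DBA arrays and 0 of 6 SJL-richest arrays and was at least 1.92-fold higher. Mus81 and Cfl1 are next to each other in the mouse gene order.

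H2-K1, a class I histocompatibility heavy chain, read 7.32, 6.87 and 7.03 in half-DBA mice, against 4.62, 5.01 and 5.54 in SJL-richest mice, where it was detected on 0 of 6 arrays, and was at least 2.84-fold higher (limma adjusted p 0.000329). Stab2, a scavenger receptor for hyaluronan, was at least 2.84-fold higher and was likewise detected on 0 of 6 SJL-richest arrays. Serpina1b, a protease inhibitor of the alpha-1-antitrypsin family, rose by 1.57 ± 0.30 (limma adjusted p 0.026), and its second probe rose by 1.13 ± 0.23. H2-K1 and Serpina1b have near-identical relatives, so their signals may be shared with those. Fam20b, a kinase that acts on the xylose of proteoglycan chains, rose by 1.43 ± 0.07, with 9.50, 9.74 and 9.65 in half-DBA mice, against 8.12, 8.19 and 8.29 in SJL-richest mice. Lypd6, a membrane-anchored protein of the Ly6 family, rose by 1.71 ± 0.30 (limma adjusted p 0.0149), and Tmem125 by 1.44 ± 0.25 (0.0167, detected on 5 of 6 SJL-richest arrays). The ubiquitin ligase Trim62 was detected on 0 of 6 SJL-richest arrays and was at least 1.46-fold higher (limma adjusted p 0.0435). Without half-DBA replicate 2 the adjusted p was 0.0805 for Lypd6, 0.0713 for Serpina1b and 0.112 for Trim62. Within arrays 9 to 16 it was 0.212 for Lypd6, 0.134 for Serpina1b, 0.233 for Tmem125 and 0.346 for Trim62.

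The probe that fell most was for Nat8f4, a member of an N-acetyltransferase family with several close copies. It read 5.23, 4.78 and 5.50 in half-DBA mice, where it was detected on 0 of 3 arrays, against 7.32, 7.56 and 7.60 in SJL-richest mice. It was at least 3.76-fold lower in half-DBA mice (limma adjusted p 1.92e-05). It was detected on 0 of 4 inbred DBA arrays as well, so no exact size can be given for either comparison. The zinc finger gene Zfp985 was also detected on 0 of 3 half-DBA arrays and was at least 1.69-fold lower, and Gramd3 was at least 1.47-fold lower with 0 of 3 arrays.

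Msmo1, an oxidase of cholesterol synthesis, read 9.45, 8.86 and 9.05 in half-DBA mice, against 10.27, 10.54 and 10.63 in SJL-richest mice, a change of -1.39 ± 0.13. Atf4, the transcription factor of the integrated stress response, read 8.08, 8.35 and 8.30 in half-DBA mice, against 9.23, 9.48 and 9.53 in SJL-richest mice, a change of -1.18 ± 0.09 (limma adjusted p 7.97e-05). Rsf1, a subunit of a chromatin remodelling complex, read 5.80, 5.96 and 6.00 in half-DBA mice, against 6.98, 7.09 and 7.32 in SJL-richest mice, a change of -1.20 ± 0.09. For all 3 genes the highest half-DBA array lay below the lowest SJL-richest array.

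Sema5a, a semaphorin that guides axons, read 9.70, 9.32 and 9.94 in half-DBA mice, against 10.56, 10.71 and 10.90 in SJL-richest mice, a change of -1.06 ± 0.13, and its second probe changed by -0.92 (limma adjusted p 0.00809). Rtn4, the myelin-associated growth inhibitor Nogo, changed by -1.01 ± 0.17 (limma adjusted p 0.0149) through ILMN_1239786, and 2 further Rtn4 probes changed by -0.21 and -0.24 and did not pass. Bhlhe40, a repressor that feeds into the circadian clock, changed by -1.03 ± 0.21 (0.0317). SJL-richest replicates 1, 2 and 3 read 8.86, 9.11 and 8.96 for Bhlhe40. Replicates 4, 5 and 6, which share the run of the half-DBA arrays, read 8.31, 8.27 and 8.30. The Bhlhe40 change was -0.69 with the run as a block (limma adjusted p 0.00911) and within arrays 9 to 16 (0.0280). Rtn4 had an adjusted p of 0.0773 and Bhlhe40 of 0.138 without half-DBA replicate 2, when Zfp985 had 0.0556. Il17d, a cytokine of the interleukin-17 family, changed by -1.03 ± 0.08, while a second Il17d probe changed by 0.01 (0.972). Of the remaining named genes, Mrpl35 (mitochondrial ribosome) was detected on 2 of 3 half-DBA arrays and was at least 2.18-fold lower. The others were Rapgefl1 at -1.05, Zfp27 (zinc finger) at -1.02, Plpbp (vitamin B6 handling) at -1.01 and Fgfr1op2 at -1.01. Further probes of these genes changed less. Those of Rapgefl1 at -0.13 (limma adjusted p 0.570), Zfp27 at -0.25 (0.0672) and Plpbp at -0.32 (0.158) did not pass. Another Plpbp probe at -0.62 (0.00779) and the second Fgfr1op2 probe at -0.47 (0.003) passed. Within arrays 9 to 16 the adjusted p passed 0.05 for Zfp985 (0.068), Rapgefl1 (0.0794), Rtn4 (0.108), Sema5a (0.0615) and Fgfr1op2 (0.0527).

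Kinesin light chain 1, which links the kinesin motor to its cargo, is the gene the study's design text singles out for its relation to amyloid-beta. That choice was made partly on these arrays, so the direction here is not independent evidence. Klc1 fell at 4 of its 5 tested probes. ILMN_2605756 read 11.03, 10.91 and 11.02 in half-DBA mice, against 11.80, 11.91 and 12.02 in SJL-richest mice, a change of -0.92 ± 0.07 (limma adjusted p 8.24e-05). The changes of ILMN_3116826, ILMN_2671411 and ILMN_3042059 were -0.71, -0.69 and -0.62, and none of the 3 had overlapping groups. The fifth probe, ILMN_3163020, read 9.43, 9.33 and 9.38 in half-DBA mice, against 9.31, 9.41 and 9.58 in SJL-richest mice, and changed by -0.04 ± 0.07 (0.844). App, the mouse amyloid precursor protein gene, changed by -0.09 ± 0.06 (0.515). Prnp, the prion protein gene, whose promoter drives some amyloid transgenes, changed by -0.01 ± 0.08 (0.950). Whether the App probe also reads the transgene is not known here.

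The inbred mice give the strain difference without the transgene and on other arrays. In them 1474 of 12134 probes differed between DBA and SJL (12.1%), and 586 (4.83%) differed in the same direction from both SJL and B6, called DBA-distinct here. The strain of the inbred arrays was read from the running numbers of the signal table. Of the 12 inbred columns of the second deposited table, 8 hold the values of another array, and for 6 of them the strain changes, while all 28 transgenic columns match. Every inbred value below therefore rests on the running numbers. When that table placed the inbred arrays, DBA-distinct probes tested in half-DBA mice numbered 24, and 11 of them (45.8%) had the inbred direction.

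The half-DBA change largely ran in the inbred DBA direction. Of the 250 probes that passed, 238 were also tested in the inbred mice, 194 differed there between DBA and SJL in the same direction, and 0 did so in the opposite one. The DBA-distinct class held 162 of them, 40 higher and 122 lower. Of the DBA-distinct probes tested in half-DBA mice, 511 of 557 (91.7%) had the inbred sign, against 6190 of 11576 (53.5%) of all probes tested in both. Among the 10168 probes that did not differ between inbred DBA and SJL, 49.5% had the same sign and 44 passed in half-DBA mice. Rgs9, one of the striatal markers, was among the DBA-distinct probes that ran against the inbred sign, at 1.29 with an adjusted p of 0.404, and its highest value of 11.94 was on half-DBA replicate 2.

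A further 32 probes that passed differed between inbred DBA and SJL but were not DBA-distinct, with 22 higher and 10 lower. In inbred mice their median absolute change was 0.95 between DBA and SJL and 0.097 between DBA and B6. These probes were chosen as differing from SJL without being DBA-distinct, which favours such medians. The medians describe the class and do not test which strain stands apart. Several of the highest genes were in this class. Lrrc57 was at least 13.9-fold higher in inbred DBA than in inbred SJL mice, which had it detected on 0 of 4 arrays, and differed by 0.08 between DBA and B6. The differences of DBA from SJL and from B6 were 2.13 and -0.12 for Stat3, 2.12 and 0.29 for Slc6a7, 1.55 and 0.05 for Psmd12, and 2.17 and 0.22 for Mus81, which 3 of 4 inbred SJL arrays detected. Among the lower genes, Rtn4 differed by -1.57 between DBA and SJL and by -0.05 between DBA and B6, and Zfp985 was at least 1.83-fold lower in DBA than in SJL mice and differed by -0.02 from B6 in the fit, with detection on 0 of 4 inbred DBA arrays. The labelled SJL share was 42% in half-DBA mice, against 84% in SJL-richest mice. Another 44 probes that passed did not differ between inbred DBA and SJL. Kif21a, a kinesin motor, was one of them.

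**Figure D2:**
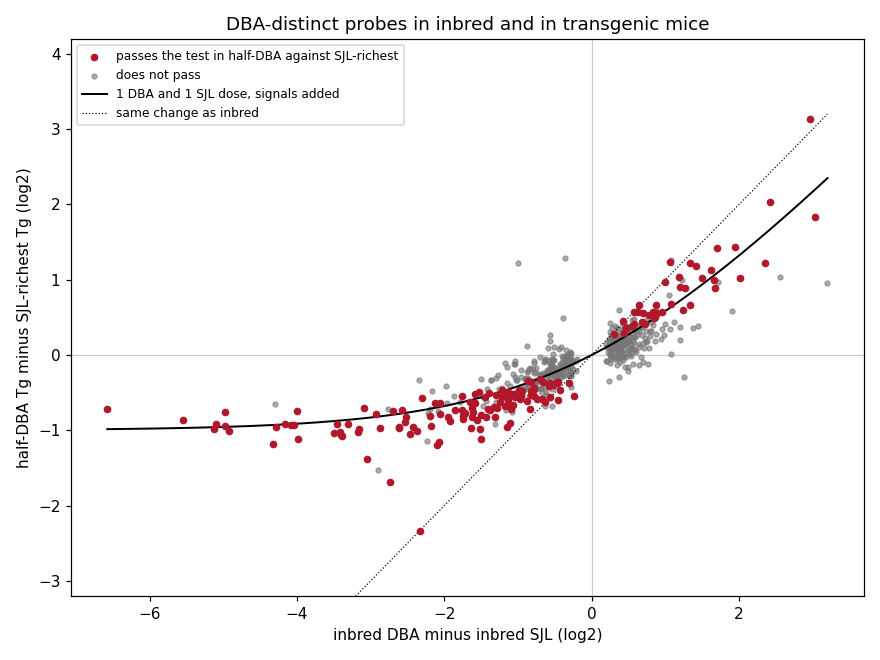
Change in half-DBA against SJL-richest transgenic mice (vertical, log2) against the inbred DBA minus SJL change (horizontal, log2) for the 557 DBA-distinct probes, with the 162 that pass the limma test in red. The solid line is the change if 1 DBA and 1 SJL copy add their signals. Most points on the left level off near -1 along it while fitted inbred changes reach -6.57. Some lie below -1, the lowest being Nat8f4 at a fitted -2.34.

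If 1 of 2 copies is DBA and the signals of copies add, the group's signal is the mean of the inbred DBA and SJL signals, and its log2 change cannot fall below -1. The 139 DBA-distinct probes with inbred changes over 2-fold were set against this value. Where a strain was detected on none of its 4 arrays (44 of the lower and 7 of the higher probes) the fitted inbred change depends on background. The 115 that were lower in inbred DBA had a median inbred change of -1.78, a median half-DBA change of -0.74 and a median value of -0.63 from this mean, or -0.56 with undetected probes at their bounds. The 24 that were higher had medians of 1.41 in inbred mice and 1.00 in half-DBA mice, against 0.87 from this mean, or 0.76 with the bounds. In all, 138 of the 139 had the inbred sign and 103 passed in half-DBA mice. The observed change minus the change from this mean had a median of -0.078, with quartiles of -0.205 and 0.069. Some of the 139 still fell below -1. Nat8f4 was at least 3.76-fold lower, and the changes were -1.39 ± 0.13 for Msmo1, -1.20 ± 0.09 for Rsf1 and -1.18 ± 0.09 for Atf4. Why these fell further was not tested.

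For 25 probes the inbred DBA minus SJL change was below -3, with a median of -4.04. Of these, 13 were detected on 0 of 4 inbred DBA arrays and 7 on all 4, and with the 13 at their bounds the median was -3.50. In half-DBA mice their median change was -0.94, within a range of -1.39 to -0.64, and the mean of both strains gave -0.92, or -0.88 with the bounds; 24 of the 25 passed. Enpp5, a membrane protein of the nucleotide pyrophosphatase family, read 10.95, 11.00 and 10.99 in half-DBA mice, against 11.80, 11.90 and 12.00 in SJL-richest mice, a change of -0.94, while the inbred change was -4.97. Rps3, a protein of the small ribosomal subunit, changed by -0.91 in half-DBA mice and by -4.16 in inbred mice. Thumpd1, which takes part in acetylation of transfer RNA, changed by -0.86, and was at least 19.6-fold lower in inbred DBA than in inbred SJL mice. Casp9, the initiator caspase of the mitochondrial death pathway, changed by -0.92, with an inbred change of at least 17.7-fold. Serpini1, the neuronal protease inhibitor neuroserpin, changed by -0.98, with an inbred change of at least 24.9-fold. These 3 were detected on 0 of 4 inbred DBA arrays.

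**Figure D3:**
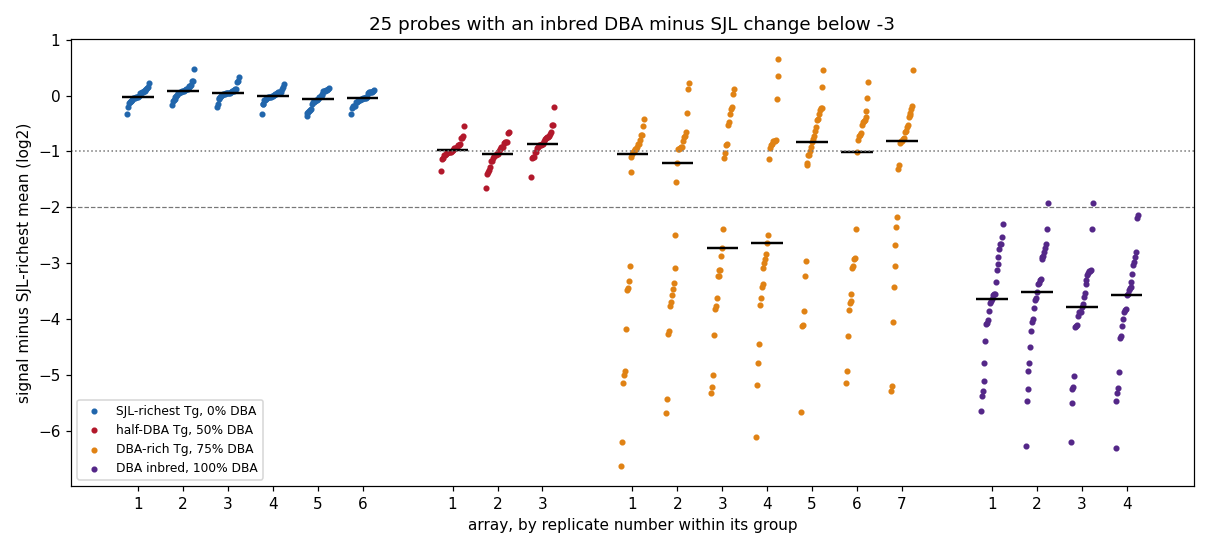
Signal of the 25 probes (points) on each array as the difference from the SJL-richest mean (log2), with the array's median as a bar, for groups with 0%, 50%, 75% and 100% DBA. The half-DBA arrays form a single band near -1, and the inbred DBA arrays lie at medians of -3.51 to -3.77. The DBA-rich arrays spread over 3 ranges, near 0, near -1 and below -2 (dashed line), with maxima up to 0.65. Most DBA-rich arrays are later ones than the SJL-richest arrays. SJL-rich mice without DBA on later arrays had medians of 0.17 to 0.34 on this scale and single values up to 1.76. Values near 0 on later arrays therefore need not equal the level of DBA-free mice there.

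On single arrays these 25 probes had a median of -0.97, -1.04 and -0.87 relative to the SJL-richest mean in the 3 half-DBA mice, and 0 of 25 lay below -2 in any of them. The medians of the 6 SJL-richest arrays ran from -0.06 to 0.09. In the 7 DBA-rich mice, with 75% DBA, medians ran from -2.73 to -0.81 and between 6 and 14 of the 25 probes lay below -2. Of their 175 values (25 probes on 7 arrays), 75 lay below -2, 66 lay from -2 to below -0.5 and 34 lay at -0.5 or above, while 74 of the 75 half-DBA values lay from -2 to below -0.5. On that scale the 6 SJL-rich mice, on later arrays and with no DBA share, had medians of 0.17 to 0.34. Most DBA-rich arrays are also later ones, so these bands do not count DBA copies. The DBA-rich array of the same run as the half-DBA mice had a median of -1.05 with 10 of the 25 below -2, and its highest value was -0.41. In inbred DBA mice 24 or 25 of the 25 lay below -2. Over the 25 probes the median SD was 0.112 in half-DBA mice and 0.111 in SJL-richest mice, while it was 1.43 in the 6 DBA-rich mice on later arrays, against 0.136, 0.141 and 0.141 over all probes tested. The half-DBA mice were thus as uniform as the SJL-richest mice at these probes. Psmb6, a catalytic subunit of the proteasome, shows it: 10.38, 10.48 and 10.39 in half-DBA mice, against 10.83, 11.17 and 11.31 in SJL-richest mice, and 5.04 to 10.80 in the DBA-rich mice on later arrays.

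Serpina3n, an acute-phase protease inhibitor of reactive astrocytes, read 11.60, 11.42 and 11.90 in half-DBA mice, against 10.31, 10.51 and 10.69 in SJL-richest mice, a change of 1.13, with an inbred change of 1.63 and a change from the mean of both strains of 1.03. The change was 0.89 in half-DBA mice and 1.67 in inbred mice for Lypd1, 1.00 and 1.66 for Lst1, and 1.02 and 1.50 for Ap5b1. Hmgn2, a nucleosome-binding protein, changed by 1.18 with an inbred change of 1.42, Slc27a2, a fatty acid transporter, by 0.90 with 1.20, and the malic enzyme Me2 by 0.59 with 1.24. Dhx36 (0.97, limma adjusted p 0.233) and Slc25a3 (0.37, 0.275) did not pass in half-DBA mice although the inbred changes were 1.71 and 1.20. Saraf exceeded both, with 3.14 in half-DBA mice, 2.96 in inbred mice and 2.13 from this mean. Its level in mice without DBA differed between array sets. On earlier arrays the mean was 7.97 in SJL-richest and 7.93 in B6-rich mice. On later arrays it was 9.23 in SJL-rich, 9.58 in inbred SJL and 9.51 in inbred B6 mice. The part of this difference in the Saraf values was not tested. Among the lower genes of this ranking, Rps15a changed by -0.78, Washc3 by -0.74, Rbbp9 by -0.97, Ccdc88a by -0.74 and Ccp110 by -0.82, with inbred changes between -2.92 and -2.52 and changes from the mean of both strains between -0.82 and -0.77.

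The difference between the half-DBA effect and the inbred DBA effect was tested directly over 17 arrays, and 279 of 12892 probes passed with limma (2.16%). Of the 139 DBA-distinct probes over 2-fold, 100 were among them and 137 had a smaller change in half-DBA mice. Where a site holds 1 DBA and 1 SJL copy and their signals add, the calculated change is smaller than the inbred one. Whether this holds at these probes was not tested. The probes with the largest fitted differences lay near background in 1 inbred strain, so that no exact size can be given for most. Psmb6 changed by -0.72 in half-DBA mice and was detected on 1 of 4 inbred DBA arrays. Znhit3 changed by -0.76 in half-DBA mice and was at least 17.2-fold lower in inbred DBA than in inbred SJL mice. The same inbred comparison gave at least 13.6-fold for 4930555G01Rik, which changed by -0.79 in half-DBA mice (limma adjusted p 0.141). On the other side were 4 genes detected on 0 of 4 inbred SJL arrays: Spink8 was at least 27.0-fold higher in inbred DBA mice, Aph1b 5.29-fold, Tgs1 5.58-fold and Siglech 3.19-fold. Their half-DBA changes were 1.19, 0.75, 0.96 and 0.36, and none passed. Cdhr1, detected on 2 of 4 inbred SJL arrays, changed by 0.57 in half-DBA mice and 2.32 in inbred mice. For these 5 the inbred DBA minus B6 change lay between -0.33 and 0.37, and SJL-richest mice varied: Spink8 ran from 4.40 to 9.21 over the 6 SJL-richest mice, against 9.52, 8.52 and 9.98 in half-DBA mice. Tnfrsf25, a death-domain receptor, changed by -0.96 (0.0117) in half-DBA mice and by 0.62 (0.160) in inbred mice. Array set and transgene differ between the 2 comparisons and cannot be told apart from the strain mix in this test.

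Detection was followed at probes that one inbred strain lacked. For 47 probes detected on all 4 inbred SJL arrays and on 0 of 4 inbred DBA arrays, all 6 SJL-richest arrays detected every one. All 3 half-DBA arrays detected 36 of them, some detected 8, and none detected 3. For 79 probes detected in all inbred DBA mice and no inbred SJL mouse, all 3 half-DBA arrays detected 57, some detected 14 and none detected 8. In SJL-richest mice 15 of the 79 were detected on 0 of 6 arrays and 7 on all 6. Over all probes, 16 were detected on every half-DBA array and no SJL-richest array, and 11 on every SJL-richest array and no half-DBA array.

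Called genes were sometimes neighbours. The 222 genes were placed among the 8619 tested genes in RefSeq's mouse gene order (assembly GRCm38.p6), and 11 pairs of called genes were adjacent, 7 of them with the same direction. One run of 4 neighbours rose together: Lypd6b by 0.78, Lypd6 by 1.71, Mmadhc by 0.43, and Rnd3, detected on 0 of 6 SJL-richest arrays, was at least 1.22-fold higher. Mus81 and Cfl1 were both higher, as given above. Rps3 fell by 0.91, and its neighbour Arrb1, a beta-arrestin that turns off G protein receptors, was at least 1.73-fold lower, with detection on 1 of 3 half-DBA arrays. No test was made of how often neighbours would be called together.

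**Figure D4:**
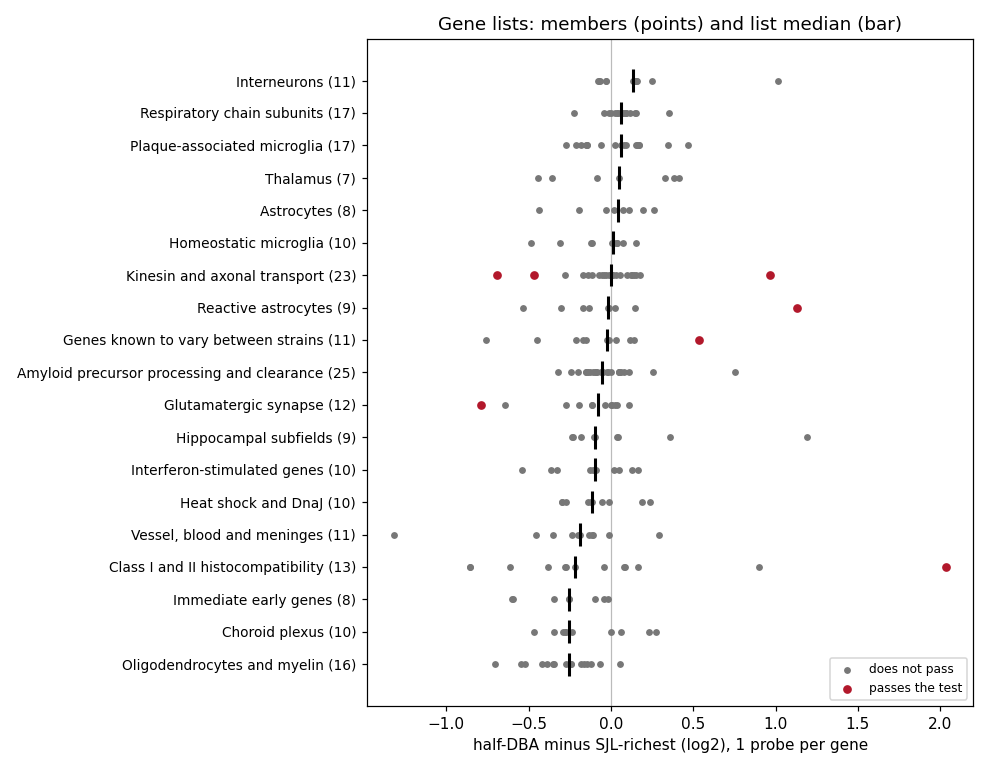
Change in half-DBA against SJL-richest mice (log2) for the members of 19 gene lists, 1 probe per gene, with the number measured in brackets, the list median as a bar, and members that pass the limma test in red. Members that pass number 7 over all lists, and all list medians lie within 0.3 of zero.

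The 19 gene lists of pathways and cell types covered 333 genes, of which 237 were measured. Members that passed numbered 7, or 6 without half-DBA replicate 2 and 5 within arrays 9 to 16, beside the 2.03% of all probes. The kinesin and axonal transport list had 23 measured members, with 1 higher and 2 lower. Klc3, a kinesin light chain, read 7.08, 7.52 and 7.07 in half-DBA mice, against 5.92, 6.28 and 6.53 in SJL-richest mice, a change of 0.97 ± 0.15 (limma adjusted p 0.00809) with an inbred change of 0.99. Kif21a read 9.93, 9.93 and 9.89 in half-DBA mice, against 10.21, 10.40 and 10.55 in SJL-richest mice, a change of -0.47 ± 0.09 (0.0253), with 0.0919 when half-DBA replicate 2 was left out and 0.134 within arrays 9 to 16. Klc3 had 0.0799 within those arrays. The list's median was -0.00085.

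In the amyloid precursor processing and clearance list, 0 of 25 members passed and the median was -0.053. The members with the largest test statistics were Apba2, an adaptor that binds the precursor protein, at -0.24 (limma adjusted p 0.0787), and the sorting receptor Sorl1, at -0.32 (0.144). In half-DBA mice Apba2 read 9.59, 9.43 and 9.52, below all 6 SJL-richest arrays. Microglial lists gave 0 passing members: the homeostatic list had 10 measured with a median of 0.014 (Gpr34 at -0.31, Selplg at -0.11), and the plaque-associated list had 17 with a median of 0.059. Fcgr3, an immunoglobulin receptor, was at 0.47 (0.127) and Trem2, a lipid-sensing receptor, at 0.35 (0.351). Among reactive astrocyte genes Serpina3n was the 1 of 9 that passed, beside Osmr at -0.54 (0.123). The astrocyte list had 0 of 8, with the water channel Aqp4 at -0.44 (0.141) and Gja1 at -0.19 (0.241). The medians of these lists were -0.018 and 0.043.

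Neuronal lists held 1 member that passed. Dlg4, the postsynaptic scaffold PSD-95, passed in the glutamatergic synapse list (1 of 12, median -0.076), with 8.45, 8.60 and 8.59 in half-DBA mice, against 9.19, 9.32 and 9.48 in SJL-richest mice, a change of -0.79 ± 0.08 (limma adjusted p 0.000603) and an inbred change of -1.73. The AMPA receptor subunit Gria3 was at -0.27 (0.196). Hippocampal subfield genes gave 0 of 9 (median -0.096, with Bok at -0.23 and Wfs1 at 0.36) and interneuron genes 0 of 11 (median 0.137). Without half-DBA replicate 2 the medians were 0.106 for the subfield genes, with 1 of 9 below zero, and 0.015 for the interneuron genes. In the interneuron list the neuropeptide Npy was at 0.25 (0.435), and Tac1, which striatal neurons also make, was at 1.02 (0.476), with 7.86, 11.39 and 8.17 in half-DBA mice, against 7.91 to 8.24 in SJL-richest mice. Respiratory chain subunits had 4 of 17 members below zero and 0 passing (median 0.063, Atp5a1 at 0.35, Uqcrc1 at 0.15). The immediate early genes were all below zero, 8 of 8, with 0 passing and a median of -0.25, or -0.12 within arrays 9 to 16 and with the run as a block. Arc was at -0.59 (0.172) and Fos at -0.60 (0.287).

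Oligodendrocyte and myelin genes were below zero for 15 of 16 members, with a median of -0.26 and 0 passing, beside 50.2% of all probes below zero. Ugt8a, an enzyme of myelin lipid synthesis, was at -0.70 (limma adjusted p 0.103) and the myelin glycoprotein Mag at -0.42 (0.124). The list's mean level was 10.43, 10.03 and 10.30 in half-DBA mice, against 10.45 to 10.71 in SJL-richest mice, so the lowest array was half-DBA replicate 2. Without it the median was -0.20 with 14 of 16 below zero. Fewer oligodendrocytes and less RNA in each cannot be told apart in bulk tissue.

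Of the other lists, class I and II histocompatibility genes had 1 of 13 that passed, H2-K1, with H2-D1 at -0.86 (limma adjusted p 0.132) and a list median of -0.22. H2-D1 differed by -3.57 between inbred DBA and SJL. Genes known to vary between strains had 1 of 11. It was Glo1, the detoxifying enzyme glyoxalase, which read 12.67, 12.53 and 12.61 in half-DBA mice, against 11.98, 12.06 and 12.16 in SJL-richest mice, a change of 0.53 ± 0.07 (0.00234), with Hdc at -0.76 (0.132). Interferon-stimulated genes had 0 of 10 (Gbp3 at -0.54, Ifitm3 at -0.32), heat shock genes 0 of 10 (Hspd1 at -0.30, Cryab at -0.27), choroid plexus genes 0 of 10 (F5 at -0.47, Igfbp2 at -0.34), thalamus genes 0 of 7 (Prkcd at -0.44, Ramp3 at 0.41) and vessel, blood and meninges genes 0 of 11 (Lum at -0.46, Hba-a1 at -1.31). The medians of these 5 lists ran from -0.26 to 0.050, and without half-DBA replicate 2 the sign turned for the choroid plexus (0.198, against -0.26), thalamus (-0.113, against 0.050) and interferon lists (0.019, against -0.099).

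**Figure D5:**
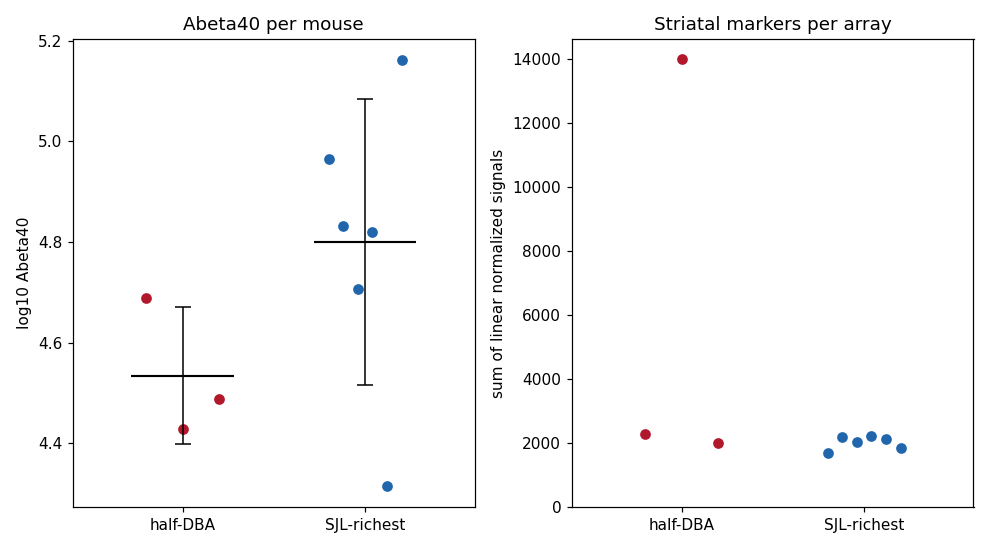
Left, log10 amyloid-beta 40 of each mouse with group mean and SD; right, the summed linear signal of 4 striatal markers on each array. The half-DBA mice lie between 4.43 and 4.69 and the SJL-richest mice between 4.32 and 5.16, and half-DBA replicate 2 stands at 14000 striatal marker units.

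Amyloid-beta 40 of the guanidine fraction, the insoluble peptide, is given per mouse in the labels as a log10 value with no unit. It was 4.69, 4.43 and 4.49 in half-DBA mice, against a lowest value of 4.32, a median of 4.83 and a highest of 5.16 in SJL-richest mice, and the groups overlapped. The means were 4.53 ± 0.14 (SD, n = 3) in half-DBA mice and 4.80 ± 0.28 (SD, n = 6) in SJL-richest mice. The difference of -0.27 in log10 units, 1.84-fold on the linear scale, did not pass an exact two-sided permutation test (p = 0.202 over 84 arrangements, the smallest possible being 0.0119). Within arrays 9 to 16 the difference was -0.23 (exact p = 0.5, the smallest possible being 0.1). Without SJL-richest replicate 5, the lowest of its group, it was -0.36 with an exact p of 0.0179. That mouse was the only SJL-richest one below the highest half-DBA mouse. Without it the groups did not overlap, and this p is the smallest possible there. With amyloid-beta 40 as a covariate in the limma fit, 142 probes passed, 134 of them among the 250.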

How the data were processed

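Hippocampal RNA of 40 mice was measured on 1-colour Illumina mouse Ref-8 arrays. The deposited table holds background-subtracted signal intensity for 25697 probes per array. It also gives a detection p-value per the file headers, but the deposited score nears 1 for bright probes and was taken as its complement. The authors' rescaled intensity stands in another deposited table. Scanner software and genome build are not given in the sources used here. Intensities were background-corrected against negative-control detection p-values and quantile-normalized over all 40 arrays with limma 3.58.1 (neqc, offset 16; R 4.3.3), then log2 values were fitted with lmFit and eBayes on the 9 arrays, with Benjamini-Hochberg adjustment at 0.05. Inbred contrasts came from 1 fit over 12 arrays and probes detected on at least 4 of them. Gene symbols came from the platform annotation, updated through Entrez numbers: 23978 probes had 1 symbol, 1719 none and 0 several. "At least" folds set the brighter group's mean against the higher of the dim probe's own signal and the lowest detected signal of each array. On simulated data the fit recovered known changes. The number of arrays limits the precision.

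Named genes were the 15 highest and 15 lowest passing genes, Klc1, App and Prnp, list members that passed or the 2 with the largest t, the 12 highest and lowest DBA-distinct genes by inbred change among probes detected on all 17 arrays of the half-DBA, SJL-richest, inbred DBA and inbred SJL groups, and the 6 largest differences of effect each way. For a list, a gene's brightest probe was used. Comparisons, members and lists were chosen with earlier results of these data known. Alternatives tried were another normalization, filter, variance model, array set, run block and left-out mice.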

Additional observations from a re-analysis of the deposited data

Results flagged for a closer look

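In 5 of 98 checks of a group of 4 or 6 mice, 1 mouse lay far from the rest, and chance alone gives about 1 in 20. SJL-richest replicate 4 gave 4 of the 5: its log2 signal was 4.75 for Lrrc57 (next highest 4.47, neither detected), 7.82 for Lypd6 (next 6.52) and 5.62 for Trim62 (next 4.84). Its blood marker sum was 2503, against 979 on the next array. Inbred DBA replicate 3 had the lowest Sema5a signal of its group, 7.18, against 7.82 for the next.

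The half-DBA effect differed from the inbred DBA effect at 279 of 12892 probes by the limma contrast of both effects. Where a site holds 1 DBA and 1 SJL copy and their signals add, the calculated values also differ at a probe with a large inbred change. Whether this holds at these probes was not tested. All 25 probes with an inbred change below -3 passed this contrast. Their median half-DBA change was -0.94, against -0.92 from the mean of both inbred strains. A difference listed here is therefore not in itself a departure from that mean. Differences are half-DBA minus inbred on the log2 scale. Among the higher genes they were -1.16 for Lrrc57, -1.19 for Stab2, -0.51 for Fam20b, -0.78 for Lypd1, -0.48 for Ap5b1, -0.64 for Me2 and -0.83 for Slc25a3. Among the lower genes they were 1.67 for Msmo1, 0.91 for Rsf1, 3.14 for Atf4, 0.91 for Mrpl35, 2.34 for Sema5a, 1.42 for Rapgefl1 and 2.46 for Bhlhe40. They were 2.39 for Il17d, 2.16 for Zfp27, 1.36 for Plpbp and 3.91 for Fgfr1op2. For Klc1 they were 2.54, 0.63 and 0.70 at ILMN_2605756, ILMN_2671411 and ILMN_3116826. They were 4.04 for Enpp5, 3.25 for Rps3, 2.14 for Rps15a, 1.96 for Washc3, 1.65 for Rbbp9, 1.84 for Ccdc88a and 1.70 for Ccp110. Further differences were 5.85 for Psmb6, 4.68 for Thumpd1, 4.22 for Znhit3, 4.17 for Casp9, 4.15 for Serpini1 and 4.11 for 4930555G01Rik. On the negative side they were -4.78 for Spink8, -2.84 for Aph1b, -2.24 for Tgs1, -2.23 for Siglech, -1.75 for Cdhr1 and -1.58 for Tnfrsf25. These are fitted values and no exact sizes for Thumpd1, Znhit3, Casp9, Serpini1, 4930555G01Rik, Il17d, Zfp27, Plpbp, Rsf1 and Mrpl35, detected on 0 of 4 inbred DBA arrays, for Psmb6, Atf4 and Fgfr1op2, detected on 1 of 4, and for Lrrc57, Stab2, Spink8, Aph1b, Tgs1 and Siglech, detected on 0 of 4 inbred SJL arrays.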

How the results depend on the processing

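Probes that passed between half-DBA and SJL-richest mice numbered 250 as reported, 125 within arrays 9 to 16, 142 with amyloid-beta 40 as a covariate, and 165 to 252 when 1 mouse was left out. The smallest of these, 165, was without half-DBA replicate 2; 2 settings added after seeing the data gave 78 (that omission within arrays 9 to 16) and 217 (over 16 arrays). The share lower in half-DBA mice was 67.2% as reported and 49.2% in a fit of all 40 arrays, which called 323. The other planned settings gave 175 to 353. The methods' t-test, run on the same values with Benjamini-Hochberg adjustment, gave 194. The share of DBA-distinct probes with the inbred sign was 90.3% to 92.5% with 1 mouse left out and 45.8% when the second table placed the inbred arrays. The difference of effects passed at 155 probes when detection on all 17 arrays was required, a smaller set of probes, and at 236 to 258 without 1 half-DBA mouse. The amyloid-beta 40 difference ran from -0.362 to -0.193, and it passed without SJL-richest replicate 5 (-0.362, exact permutation p = 0.0179). That mouse was the only SJL-richest one that overlapped the half-DBA mice, so leaving it out separates the groups. Over 42 named probes and 27 settings, 111 values fell short of the threshold at probes that passed as reported. App, Prnp and Klc1 ILMN_3163020 passed in 0 of 27 settings and are not counted in the 111. Sign changed for 5 values, all of Prnp. These were 0.0102 with array weights, 0.0268 without half-DBA replicate 2 (and again over 16 arrays) and 0.0079 without SJL-richest replicate 5 or 6. The range for Prnp was -0.0468 to 0.0268 when 1 mouse was left out. No paired analysis was possible because the labels give no replicate numbers. Dim probes near background limit the fold changes given as bounds.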
